A study of Mus musculus with 32 samples.

Results

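The insulin-like growth factor (IGF) family was examined by cell type in the median eminence (ME) of the adult mouse, the part of the basal hypothalamus where neurosecretory axons end on fenestrated capillaries that lead to the pituitary. IGF1 and IGF2 are secreted peptides related to insulin, and most of their signal passes through the IGF1 receptor. IGF2R binds IGF2 and carries it to lysosomes, so it lowers the amount of free ligand. IGF-binding proteins hold the ligands in extracellular fluid and set how much of them reaches a receptor, and proteases that cut the binding proteins free the ligand again. IGFBP7 binds IGFs weakly and is best known as a matrix protein of blood vessels. The 9 genes described here were the rows of the count matrix for Igf1, Igf2, Igf2r and Igfbp2 to Igfbp7, which is 9 of 27998 genes, and all 9 were found.

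Single cells were prepared from male C57B/L6 mice aged 40 to 47 days. The ME of 5 mice fasted overnight for 16 h formed one pool and the ME of 5 mice fasted for 16 h and refed normal chow for 1 h formed the other, and each pool was divided into 2 droplet libraries (10x Chromium, 3′ end counting). GEO lists 32 sample records, 16 per condition, and the deposited matrix held 5982 cells and 29288898 unique molecular identifiers (UMIs, each standing for 1 captured transcript). Cell barcodes carried a number from 1 to 4 that the files and labels used here tied to no library and no condition, so fasted and refed cells were described together as 1 sample and no refed-against-fasted comparison was made. The barcode numbers held 1642, 1493, 1359 and 1488 cells with medians of 3875.5, 3518, 4057 and 3892 UMIs per cell. They are used below only to show the spread, are not replicates of a condition, and receive no test. In all, 21 barcodes occurred under more than 1 number, which involved 42 cells.

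Levels are given as CPM, the UMIs of a gene in all cells of a type scaled to 1000000 UMIs of that type, with an exact 95% Poisson interval. Shares of cells have an exact 95% Clopper-Pearson interval. Both intervals cover counting error only, and with 1 sample there is no test of a difference. Where one of the 9 genes had no UMI in a named type discussed, the level of 3 UMIs in that type is given as a floor. Captured UMIs depend on the transcript, so levels were compared between cell types within a gene and not between genes. Cells were grouped into 24 clusters without the 9 genes and 38 further genes of the IGF system, and clusters were named from fixed markers. The names cover 13 types used for comparison. Vascular and leptomeningeal cell (VLMC)-like cells, fibroblasts of the brain's coverings and vessel walls, numbered 268 and held 2.77% of all UMIs, and 7 of their 8 markers were highest there, with unnamed clusters included in this check, while Mgp was higher in an unnamed cluster. All 8 endothelial markers and all 8 mural markers, which mark pericytes and smooth muscle, were highest in the matching type, as were 7 of 8 macrophage markers, 7 of 7 markers of oligodendrocyte progenitor cells (OPCs), 6 of 7 pars tuberalis markers and 5 of 8 tanycyte markers. A cluster of 40 cells led by Mgp, Fxyd5, Igfbp6, Ccn3 and Spon2 and a cluster of 384 cells led by Mia, Mt3, Mlc1 and Gfap received no name.

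Among the named types, cells of the brain's coverings, cells of the vessel walls and macrophage-like cells had the highest levels of every gene of the family but Igf2r. In the unnamed Mgp- and Fxyd5-led cluster Igfbp6 was higher than in any named type, at 1307 CPM, and Igfbp4 was 496 CPM against 451 CPM in VLMC-like cells, with overlapping intervals. The highest level among the 13 named types was in VLMC-like cells for 5 of the 9 genes, namely Igf2, Igfbp2, Igfbp4, Igfbp5 and Igfbp6. Among all 12531 genes with at least 100 UMIs in the named types, 4.63% had their highest level in VLMC-like cells. Igf1 was highest in macrophage-like cells, Igf2r in ependymocyte-like cells, Igfbp3 in endothelial-like cells and Igfbp7 in mural-like cells. Of these places, 2 rested on few cells described below. Without 14 VLMC-like cells Igf2 was highest in mural-like cells, and without 6 endothelial-like cells Igfbp3 was highest in OPC-like cells. For 4 of the 9 genes (Igf2, Igfbp2, Igfbp5 and Igfbp6) at least 50% of the UMIs in named types came from 1 type, in each case the VLMC-like cells, against 20.7% of the 12531 genes. Over all cells, the unnamed clusters included, VLMC-like cells held 42.1% of the Igfbp6 UMIs. The counts are given beside the background as a description.

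**Figure D1:**
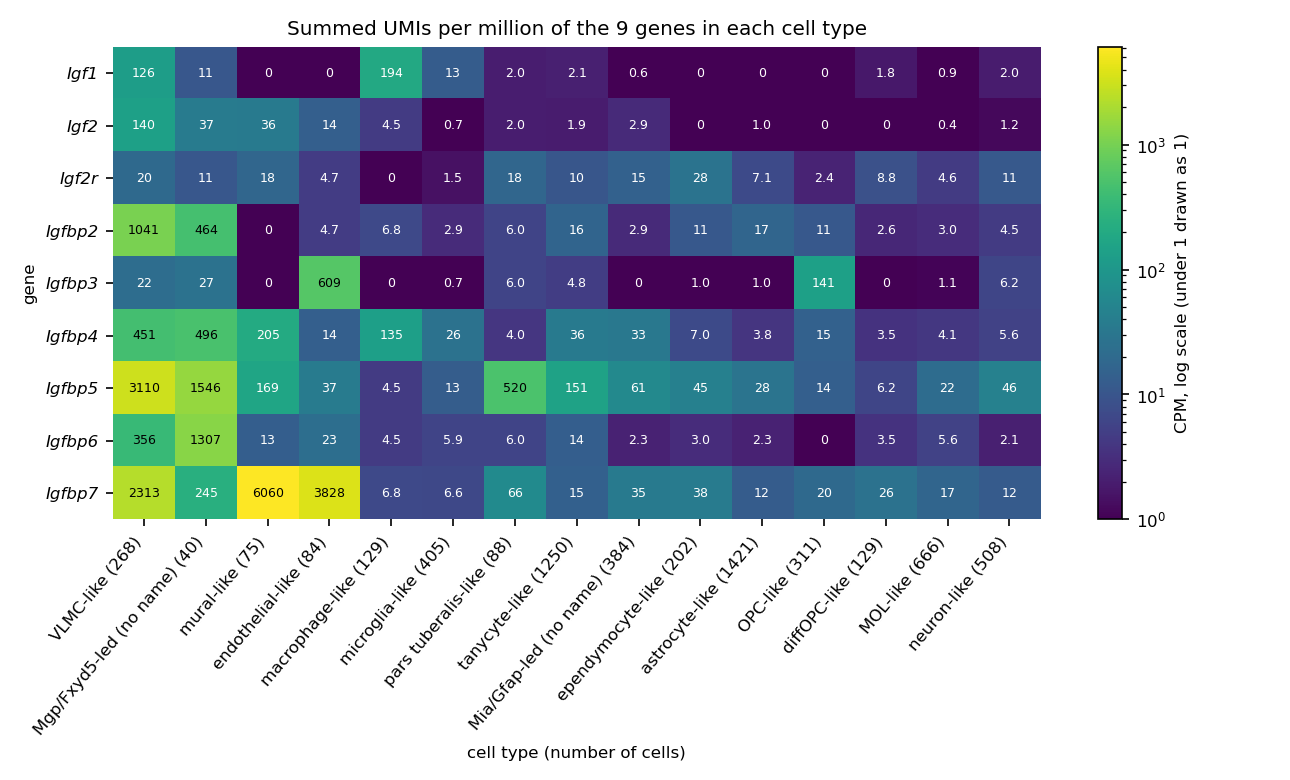
Heat map of the 9 genes (rows) in each cell type or unnamed cluster (columns, with the number of cells), coloured by CPM on a log scale and printed in each box. High levels of the binding proteins lie in the columns of VLMC-like, mural-like and endothelial-like cells and the Mgp- and Fxyd5-led cluster, while Igf1 is high in macrophage-like cells at 194 CPM and VLMC-like cells at 126 CPM.

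Igf1, the ligand through which much of growth hormone's effect on tissues runs, lies on chromosome 10 (GRCm38, 87858265 to 87937042, plus strand). It had 240 UMIs in 149 cells. Macrophage-like cells reached 194 CPM (95% interval 155 to 240), with 193, 173, 156 and 292 CPM in barcode numbers 1 to 4. VLMC-like cells followed at 126 CPM (102 to 152), with 97.1, 113, 161 and 127 CPM. The Poisson intervals of the 2 types did not overlap, but the ranges over barcode numbers did. VLMC-like cells held 42.5% of the Igf1 UMIs and macrophage-like cells 35.8%. This order of sources was not stable, and macrophage-like cells were the largest source among the named types after thinning (45.8% of Igf1 UMIs in them), without barcode number 3 (41.3%) and without 14 VLMC-like cells led by Rbp4 (44.1%). An Igf1 UMI was found in 59 of 129 macrophage-like cells (45.7%, 36.9 to 54.7) at a median depth of 3212 UMIs per cell. It was found in none of 1421 astrocyte-like cells at a median of 2665 UMIs, where the floor was 0.763 CPM. After each cell was thinned to 1000 UMIs the macrophage-like share was 19.4%. Microglia-like cells, the resident phagocytes of the neural tissue, had 17 Igf1 UMIs in 9 of 405 cells, 7 of them in 1 cell, which gave 12.5 CPM. Of these UMIs 12 were in barcode number 1, and without that number the level was 5.40 CPM. No Igf1 UMI was found in OPC-like or ependymocyte-like cells, with floors of 2.37 and 3.003 CPM. None was found in endothelial-like or mural-like cells either, but their floors of 13.95 and 13.3 CPM lie above the microglia-like level.

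Igf2, the ligand that is imprinted in most tissues and known in the adult brain from its coverings and choroid plexus, lies on chromosome 7 (142650766 to 142666816, minus strand). Its 165 UMIs came from 67 cells. VLMC-like cells had 140.3 CPM (116 to 169) and held 69.1% of them. By barcode number their level was 204, 118, 152 and 84.7 CPM. An Igf2 UMI was seen in 24 of 268 VLMC-like cells, which is 8.96% (5.82 to 13.03) at a median depth of 2887.5 UMIs. The share in OPC-like cells was 0 of 311 at a median of 4025 UMIs, with a floor of 2.37 CPM. Mural-like cells came next among the named types at 35.6 CPM (15.4 to 70.1) from 8 UMIs, with 75.2, 73.8, 16.9 and 0 CPM by barcode number and 23.3 CPM without number 1. The first place of VLMC-like cells rested on the 14 Rbp4-led cells described next, without which mural-like cells were highest and VLMC-like cells had 17.4 CPM and 25% of the Igf2 UMIs in named types. With every cell thinned to 1000 UMIs, the VLMC-like level was 78.4 CPM, and its share of cells was 4.85%. The neighbouring Ins2, 11839 bases away, had 3 UMIs in all cells. The antisense Igf2os, which overlaps the 5′ part of Igf2, had 1 UMI.

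Within the VLMC-like cells, Igf2 was concentrated in very few cells. Sub-clustering of VLMC-like cells and the Mgp- and Fxyd5-led cluster, again without the IGF genes, set apart 14 VLMC-like cells led by Rbp4, Ptgds, Slc6a20a, Vtn, Slc6a13 and Fmod. Rbp4 encodes a retinol carrier, Ptgds a prostaglandin synthase abundant in the meninges, and both Slc6 genes encode solute transporters. This sub-cluster was singled out after the levels were seen, because its Igf2 was highest, so its Igf2 is a description. These 14 cells held 101 Igf2 UMIs, 61.2% of those in the series, at 1512 CPM (1232 to 1837). All but 1 of them had an Igf2 UMI, and the 14 values ran from 0 to 20 UMIs with a median of 3.5. The other 254 VLMC-like cells had 17.4 CPM (9.28 to 29.8), with a UMI in 11 cells. Among them a sub-cluster of 55 cells, also led by Ptgds and Slc6a13, had 49.5 CPM (19.9 to 102) from 7 UMIs. Each barcode number contributed to the 14 cells, with 3, 2, 4 and 5 of them, and their Igf2 was 3279.8 CPM in number 1, 1452 CPM in number 2, 1416 CPM in number 3 and 643 CPM in number 4. In the other VLMC-like cells the values were 10.9, 31.3, 9.93 and 17.8 CPM. Since Igf2 chose the cells, this separation is part of the choice.

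The binding proteins divided the same cells. Igfbp2 was 6333 CPM in the 14 Rbp4-led cells, where 14 of 14 cells had between 1 and 95 UMIs, and 567 CPM in the other VLMC-like cells, where 175 of 254 had a UMI. Igfbp5 ran the other way, at 2 UMIs in 1 of the 14 cells, which is 29.9 CPM and under the floor of 44.9 CPM, against 3386 CPM in 238 of the other 254 cells. In the sub-cluster of 55 cells led by Ptgds and Slc6a13, Igfbp2 was 792 CPM (652 to 953) and Igfbp5 2474 CPM (2221 to 2747). Igfbp7 was 419 CPM in the Rbp4-led cells and 2483 CPM in the rest, and Igfbp6 was 59.9 CPM (4 UMIs) and 382 CPM. Igfbp4 was 209.6 CPM (115 to 352) in the Rbp4-led cells and 472 CPM (424 to 524) in the rest. Igf1 was 614 CPM in the Rbp4-led cells, 6 of which had a UMI, and 81.8 CPM in the rest. By barcode number this was 432, 484, 1195 and 148 CPM in the Rbp4-led cells and 76.0, 88.8, 44.7 and 125 CPM in the others, so the values lay close together in number 4. Of the 41 Igf1 UMIs 27 were in 2 cells of number 3, with 15 and 12 each, and without that number the level in the Rbp4-led cells was 317 CPM. All 8 VLMC markers had a UMI in the 14 cells, although Dcn, a collagen-binding proteoglycan, was 3324 CPM there and 22775 CPM in the other VLMC-like cells. Of the 8 macrophage markers only Lyve1 had a UMI in them (14.97 CPM) and 7 were at 0. Of the 8 mural markers 3 had a UMI, almost all of it from Vtn at 11004 CPM, while Rgs5, Kcnj8, Abcc9, Higd1b and Myh11 were at 0. The summed level of the mural list was 11064 CPM in the 14 cells and 157 CPM in the other VLMC-like cells. That of the VLMC list was 10914 CPM in the 14 cells and 36206 CPM in the others. Of the 8 endothelial markers 7 had a UMI, with a summed level of 4147 CPM led by Itm2a at 3518 CPM and Emcn at 0, against 522 CPM in the other VLMC-like cells. The astrocyte list summed to 1332 CPM, led by Gjb6 at 1183 CPM, against 655 CPM. The part of other cell types in the levels of the 14 cells was not tested. None of the 14 cells was called a doublet. The same 14 cells were recovered at coarser and finer resolutions and with the IGF genes included.

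**Figure D2:**
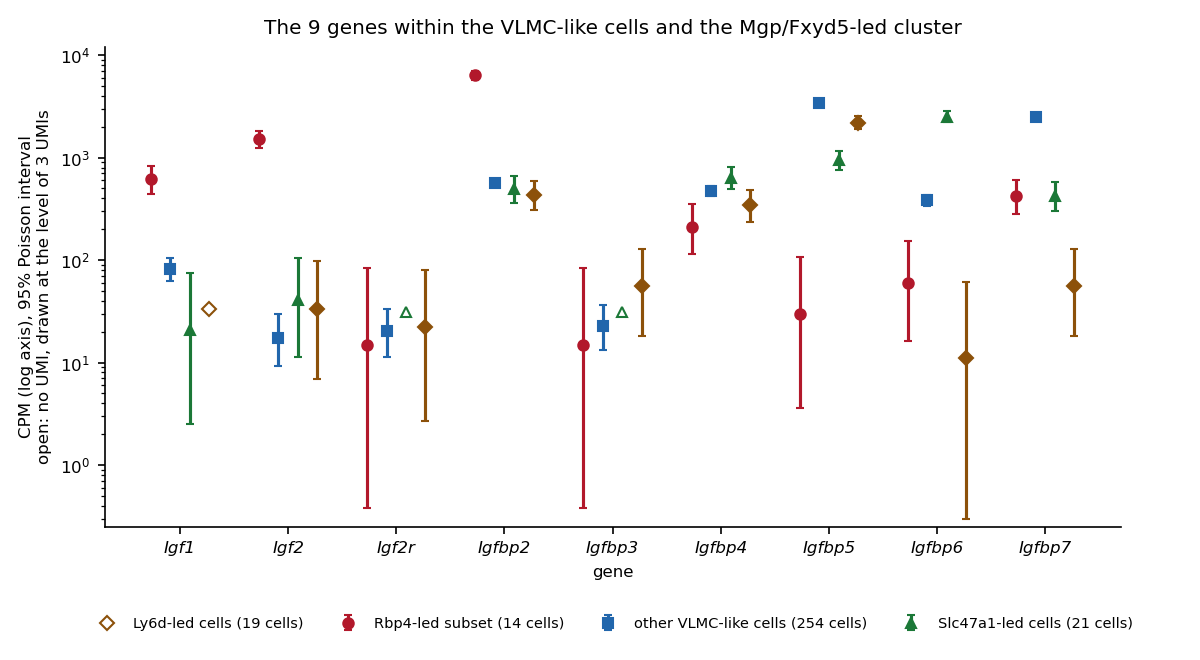
Levels (CPM, log axis, with 95% Poisson intervals) of the 9 genes in the 14 Rbp4-led cells, the other 254 VLMC-like cells and the 2 sub-clusters of the Mgp- and Fxyd5-led cluster, with open symbols for no UMI drawn at the level of 3 UMIs. The Rbp4-led cells are highest for Igf1, Igf2 and Igfbp2, and for Igfbp5 they lie at 29.9 CPM against 3386 CPM in the other VLMC-like cells.

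Igfbp2 and Igfbp5 are neighbours on chromosome 1. Igfbp2 runs on the plus strand from 72824503 to 72852474 and Igfbp5 on the minus strand from 72857932 to 72874884, so the genes point towards each other with 5457 bases between them. Igfbp6 lies on chromosome 15 (102144362 to 102149511, plus strand) and Igfbp7 on chromosome 5 (77349240 to 77408041, minus strand). The 250 bases before a RefSeq start of each of these 4 genes (GRCm38.p6, read 5′ to 3′ on the gene's strand) are shown because they belong to the neighbouring pair whose levels were opposite in the Rbp4-led cells and to the genes that led in other cells. Capitals mark matches to TATAAA, to the motif GGGCGG and to the motif CCAAT on either strand, 3 short strings found near many start sites.
Igfbp2 (chr1:72824230-72824479, plus): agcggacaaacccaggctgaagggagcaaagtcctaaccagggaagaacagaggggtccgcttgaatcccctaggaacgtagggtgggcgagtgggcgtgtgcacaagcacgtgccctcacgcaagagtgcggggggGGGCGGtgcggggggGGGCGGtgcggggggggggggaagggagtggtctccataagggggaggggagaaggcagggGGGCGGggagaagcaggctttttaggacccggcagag
Igfbp5 (chr1:72874866-72875115, minus): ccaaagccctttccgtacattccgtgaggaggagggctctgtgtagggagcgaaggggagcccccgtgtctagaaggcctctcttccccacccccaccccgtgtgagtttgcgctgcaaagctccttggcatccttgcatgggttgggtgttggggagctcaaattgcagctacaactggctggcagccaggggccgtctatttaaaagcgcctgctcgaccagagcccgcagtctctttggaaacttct
Igfbp6 (chr15:102143936-102144185, plus): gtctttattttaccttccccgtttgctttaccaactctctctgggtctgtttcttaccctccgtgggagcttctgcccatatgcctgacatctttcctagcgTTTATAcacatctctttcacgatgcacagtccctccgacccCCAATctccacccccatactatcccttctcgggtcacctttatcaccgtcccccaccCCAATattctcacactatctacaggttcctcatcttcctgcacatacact
Igfbp7 (chr5:77408046-77408295, minus): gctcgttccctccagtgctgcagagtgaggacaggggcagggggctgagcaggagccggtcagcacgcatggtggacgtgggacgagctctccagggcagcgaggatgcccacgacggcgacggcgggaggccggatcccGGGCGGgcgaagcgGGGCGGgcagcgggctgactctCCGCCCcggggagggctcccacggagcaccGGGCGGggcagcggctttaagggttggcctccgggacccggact
RefSeq lists 2 starts for Igfbp2, and the upstream one is shown. Its window had 3 matches to GGGCGG, and that of Igfbp7 had 4, while Igfbp6 had 1 match to TATAAA and 2 to CCAAT. The Igfbp5 window held none of the 3 strings, which says only that these letters are not in it. Of 32851 RefSeq windows of the same length, 12.4% held TATAAA, 32.7% GGGCGG and 33.8% CCAAT. The windows also differed in composition, with 67.2% G and C and 14 CG steps for Igfbp2, 58.8% and 10 for Igfbp5, 49.6% and 7 for Igfbp6, and 74.0% and 26 for Igfbp7. The window of the other Igfbp2 start (chr1:72825137-72825386) had none of the 3 strings, 56.4% G and C and 11 CG steps. These matches are descriptions of sequence and not sites of binding.

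Igfbp2, which in the adult brain is known from the coverings and from glia, had 1174 UMIs in 400 cells. VLMC-like cells had 1041 CPM (972 to 1114), with 1104, 972, 1214 and 847 CPM by barcode number. The next named types were astrocyte-like cells at 17.0 CPM and tanycyte-like cells at 16.5 CPM, so the VLMC-like level was 61.1-fold that of the second. VLMC-like cells held 72.1% of Igfbp2 UMIs, and 70.5% of them (189 of 268, 64.7 to 75.9) had one, or 44.0% after thinning. The Mgp- and Fxyd5-led cluster had 464 CPM (372 to 572). None of 75 mural-like cells had an Igfbp2 UMI at a median of 2946 UMIs per cell, a depth close to that of the VLMC-like cells, and the floor was 13.3 CPM. The 14 Rbp4-led cells and the other 254 VLMC-like cells each held 423 Igfbp2 UMIs. Without the 14 cells the VLMC-like level was 567 CPM, so the fold over astrocyte-like cells rests in part on them.

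Igfbp5, a binding protein that adheres to extracellular matrix, had 4615 UMIs in 1175 cells. Its level in VLMC-like cells was 3109.6 CPM (2990 to 3233), and a UMI was found in 239 of 268 of them (89.2%, 84.8 to 92.6). After thinning this share was 76.1%. In microglia-like cells 14 of 405 cells (3.46%) had a UMI at a median of 3093 UMIs, and in macrophage-like cells, the named type with the lowest share, 2 of 129 (1.55%) at a median of 3212 UMIs. By barcode number the VLMC-like level was 4139, 3837, 2058 and 2505 CPM, a wider spread than the Poisson interval. No other named type overlapped that range. The Mgp- and Fxyd5-led cluster had 1546 CPM (1374 to 1735), with 1721, 1896, 1574 and 1133 CPM by barcode number, below the VLMC-like range. Pars tuberalis-like cells, endocrine cells of the pituitary stalk next to the ME, came second among the named types at 520.4 CPM (459 to 587), with 472, 680, 414 and 594 CPM by barcode number, and 37 of 88 cells had a UMI. Tanycyte-like cells, the specialised ependymal cells that line the floor of the third ventricle, had 151 CPM (141 to 162), with 145, 130.2, 179 and 156 CPM. They contributed 16.9% of all Igfbp5 UMIs because they were numerous.

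The tanycyte-like and neuron-like clusters were not uniform for Igfbp5. The tanycyte-like cluster of 115 cells with high Scn7a and Col25a1 had 293 CPM (251 to 339), that of 593 cells had 210.0 CPM (191 to 230) and that of 542 cells had 56.8 CPM (47.5 to 67.4). The cluster of 115 cells was also the highest of these 3 for Igfbp4 at 95.4 CPM, for Igfbp2 at 67.4 CPM and for Igfbp3 at 36.2 CPM. The 75 neuron-like cells of the cluster led by Avp and Vip had 297 CPM (252 to 348) with a UMI in 58 cells. The cluster of 65 neuron-like cells with Agrp, which encodes a hunger-promoting peptide, had 21.01 CPM, and the largest neuron-like cluster had 24.9 CPM. Thinned shares were 17.3% in the Avp- and Vip-led cluster, 1.54% in the Agrp cluster and 4.08% in the largest.

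Igfbp4, which lies on chromosome 11 (99041244 to 99054392, plus strand) and is a main substrate of the protease PAPP-A, had 953 UMIs in 609 cells. VLMC-like cells had 451 CPM (406 to 499), and 383, 520.1, 424 and 477 CPM by barcode number. The Mgp- and Fxyd5-led cluster had 496 CPM (400.3 to 608), which overlapped the VLMC-like interval. Mural-like cells followed at 205 CPM (150 to 273), with 244, 49.2, 355 and 139 CPM by barcode number. Macrophage-like cells had 135 CPM (103 to 174), with 178, 79.4, 156 and 131 CPM, and their range lay within that of the mural-like cells. Endothelial-like cells had 3 UMIs in 2 of 84 cells, at 13.95 CPM.

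Igfbp6, a binding protein that prefers IGF2, had 686 UMIs in 254 cells. The Mgp- and Fxyd5-led cluster, 0.640% of all UMIs, held 35.7% of them at 1307 CPM (1148 to 1481), and Igfbp6 is among the genes that lead that cluster, although it was not used to form it. By barcode number its level was 2185, 733, 1230 and 719 CPM. VLMC-like cells had 356 CPM (316 to 399), with 235, 466, 286 and 445 CPM, a range that lay below that of the Mgp- and Fxyd5-led cluster. None of 311 OPC-like cells had an Igfbp6 UMI, with a floor of 2.37 CPM. Of the other named types, endothelial-like cells were next at 23.3 CPM, but all 5 UMIs were in 1 cell.

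The Mgp- and Fxyd5-led cluster itself fell into 2 sub-clusters. The first, 21 cells led by Slc47a1, an exporter of organic cations, had Igfbp6 at 2508 CPM in 21 of 21 cells and Ccn3, a secreted matrix protein related to the binding proteins, at 1450 CPM in 19 of 21. The second, 19 cells led by Ly6d, Epcam and the keratins Krt17 and Krt18, had Igfbp6 in 1 of 19 cells and no Ccn3 UMI (floor 33.2 CPM). Igfbp5 was found in 18 cells of each, at 946 CPM (762 to 1160) in the Slc47a1-led cells and 2194 CPM (1899 to 2522) in the Ly6d-led cells. Igf1r was at 0 in the Slc47a1-led cells, with a floor of 30.8 CPM, and at 155 CPM (84.8 to 260.3) in the Ly6d-led cells. Igfbp7 was 421 CPM and 55.4 CPM. These sub-clusters were looked at after the levels were known.

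**Figure D3:**
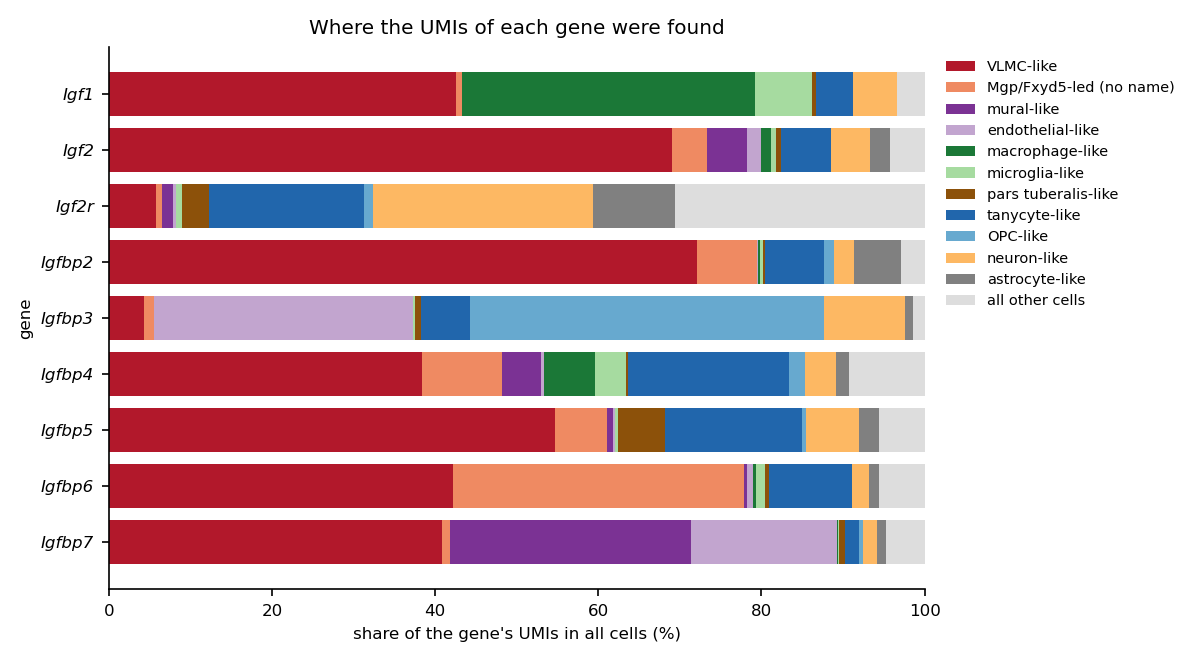
Stacked bars of the share of each gene's UMIs (horizontal axis, percent of all its UMIs) that came from each cell type, given by colour, with the remaining cells in light grey. VLMC-like cells hold 72.1% for Igfbp2 and 54.7% for Igfbp5, mural-like and endothelial-like cells together with VLMC-like cells hold most of Igfbp7, and Igf2r has no leading source.

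Igfbp7 was a gene of vessel walls. Its 4604 UMIs came from 807 cells. Mural-like cells reached 6059.6 CPM (5742 to 6390.0), with 6169, 4749, 6892 and 6034 CPM by barcode number and a UMI in 75 of 75 cells. Endothelial-like cells had 3828 CPM (3571 to 4098), with 5018, 3182, 3856 and 3372 CPM, and 82 of 84 cells had a UMI. A sub-cluster of 5 endothelial-like cells was led by the mural marker Vtn, at 9765 CPM against 10.2 CPM in the others. Their part in the endothelial-like Igfbp7 level was not tested. VLMC-like cells had 2313 CPM (2209.7 to 2420.2), with 2228, 2483, 2081 and 2494 CPM, and 255 of 268 cells had a UMI. The VLMC-like range lay below the endothelial-like range, and the endothelial-like and mural-like ranges overlapped through barcode number 1 of the former. VLMC-like cells held 40.8% of Igfbp7 UMIs, mural-like cells 29.6% and endothelial-like cells 17.9%. The levels in macrophage-like and microglia-like cells were 6.77 and 6.62 CPM. In neuron-like cells, with a median of 13412 UMIs, 14.6% of cells had an Igfbp7 UMI, but after thinning it was 0.591%, against 0.247% in microglia-like cells.

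Igfbp3, the main binding protein of circulating IGFs, lies on chromosome 11 (7206086 to 7213923, minus strand), 3539 bases from Igfbp1, which had 1 UMI in the series. Of its 413 UMIs 179 were in OPC-like cells and 131 in endothelial-like cells, followed by neuron-like cells with 41, tanycyte-like cells with 25 and VLMC-like cells with 18. Endothelial-like cells had 609 CPM (509 to 723) from 131 UMIs in only 14 of 84 cells. By barcode number the level was 664, 289, 20.3 and 2217 CPM, so the counting interval does not describe its spread, and without number 4 it was 328 CPM. OPC-like cells had 141 CPM (121 to 163), with 154, 132, 127 and 144 CPM, and 133 of 311 of them (42.8%, 37.2 to 48.5) had between 1 and 4 UMIs. They held 43.3% of the Igfbp3 UMIs, but after thinning endothelial-like cells were the largest source, with 43.1% of those in named types. In differentiating OPC-like cells, the following stage of the lineage, 0 of 129 cells had an Igfbp3 UMI at a median of 8604 UMIs, more than the 4025 UMIs of OPC-like cells. The floor in them was 2.64 CPM. The thinned share in OPC-like cells was 12.9%.

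Within the endothelial-like cells, 6 cells led by Plvap and Esm1 held 113 of the 131 Igfbp3 UMIs. PLVAP forms the diaphragms of fenestrated capillaries, the kind of vessel that supplies the ME. All 6 had an Igfbp3 UMI, with 14 and 19 UMIs in the cells of barcode number 1, 18 in that of number 2, and 53, 8 and 1 in those of number 4. Number 3 had no such cell. The other 78 endothelial-like cells had 18 UMIs in 8 cells, which is 90.2 CPM (53.4 to 143), with 59.9, 64.7, 20.3 and 393 CPM by barcode number. Without the 6 cells, OPC-like cells had the highest Igfbp3 level of the named types. In the 6 cells 7 of 8 endothelial markers had a UMI and Cldn5 was at 0, all 8 mural markers were at 0, and of 8 VLMC markers only Mgp had one, at 454 CPM against 757 CPM in the other endothelial-like cells. Of the 6 cells 1 was called a doublet. Plvap had 243 UMIs in all cells, of which 74 were in these 6. The group was singled out after its Igfbp3 was seen.

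**Figure D4:**
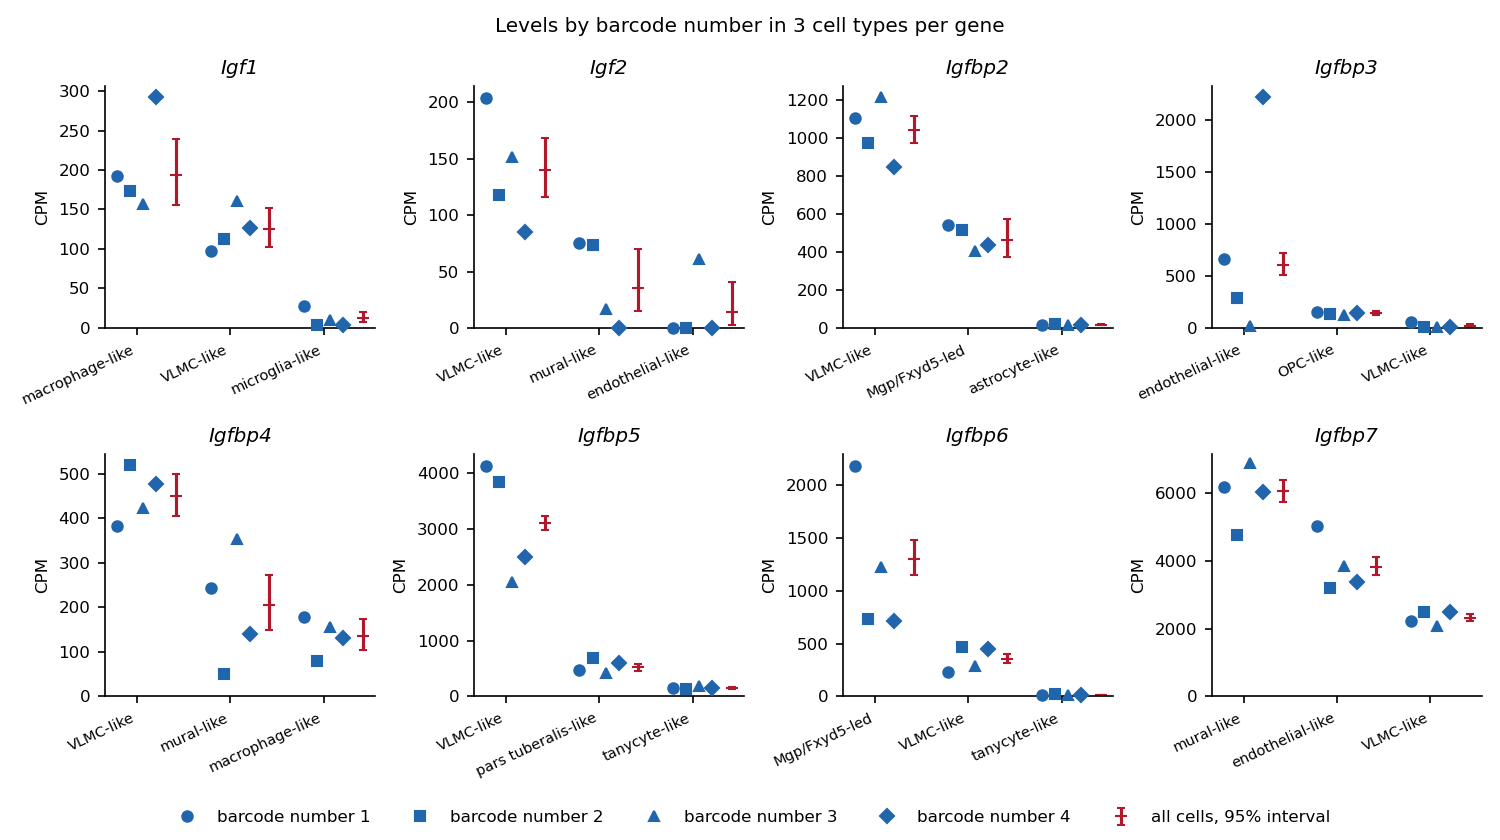
Levels (CPM, linear axes from 0) of 8 of the genes in 3 cell types each, by barcode number (blue symbols) and over all cells with the 95% Poisson interval (red). The numbers lie close together for Igfbp3 in OPC-like cells (127 to 154 CPM) and far apart in endothelial-like cells (20.3 to 2217 CPM), and Igfbp5 in VLMC-like cells runs from 2058 to 4139 CPM.

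Igf2r, the receptor that clears IGF2, lies on chromosome 17 (12682406 to 12769664, minus strand) and showed no leading source. Its 278 UMIs were in 264 cells, with at most 2 UMIs in a cell. Ependymocyte-like cells had the highest level, 28.0 CPM (18.6 to 40.5), with 19.3, 16.9, 21.7 and 44.3 CPM by barcode number. VLMC-like cells followed at 19.7 CPM (11.3 to 32.0), pars tuberalis-like cells at 17.9 CPM (8.66 CPM without barcode number 3) and mural-like cells at 17.8 CPM. The intervals of neighbouring types overlapped all the way down the order, so no place in it is separated from the next beyond counting error. Neuron-like cells held 27.0% of the UMIs and 22.6% of all UMIs of the series. Macrophage-like cells had none, with a floor of 6.77 CPM. Airn, the antisense RNA that overlaps Igf2r, had 85 UMIs and reached 26.7 CPM in mural-like cells, with VLMC-like cells at 24.6 CPM, and whether the counting used strand is not given in the sources used here. It runs on the plus strand from 12741311 to 12860136, so it overlaps the 5′ part of Igf2r and not the 3′ end at 12682406, where this method mostly counts. Only reads within the overlap could not be told apart without strand.

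Several binding proteins were often found in the same VLMC-like cell. At least 3 of the 6 binding protein genes had a UMI in 237 of 268 VLMC-like cells (88.4%), with a median of 4 per cell, and in 49.6% of them after thinning. The shares were 72.5% and 35.0% in the Mgp- and Fxyd5-led cluster, 20% and 1.33% in mural-like cells, and 1.52% and 0.0800% in tanycyte-like cells. No astrocyte-like cell of 1421 had 3. Together VLMC-like cells held 47.6% of the UMIs of the 6 genes, mural-like cells 11.7%, tanycyte-like cells 9.83% and endothelial-like cells 7.80%. Igfbp5 and Igfbp7 gave 4615 and 4604 of these 12445 UMIs, so they weigh most in the shares.

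The genes whose levels over the 24 clusters were most like those of each member were found by Pearson's r of log2(CPM + 10) among 11016 genes with at least 200 UMIs. The clusters share libraries and depth, and r is a description. For Igf2 the closest were Pcolce, which aids collagen processing (r = 0.98), Spp1 (0.95) and Cped1 (0.93). Igfbp2 was closest to the microfibril gene Mfap5 (0.92), Fbln2 (0.91) and Dpep1 (0.90), and Igfbp6 to the collagen gene Col8a1 (0.94), Mfap5 (0.91) and Fbln2 (0.90). Igfbp7 was closest to Arhgap29 (0.96), Vtn (0.96) and the basement membrane collagen gene Col4a2 (0.95). Igfbp5 was closest to Por (0.85), the glypican gene Gpc3 (0.84) and Islr (0.82), and Igfbp4 to Shc1 (0.82), Cast (0.81) and Spp1 (0.81). Igf1 was closest to Tgfbi (0.83), the chemokine gene Cxcl16 (0.79) and Smarcd2 (0.79). Igfbp3 was closest to Ly6c1 (0.81), Slco1a4 (0.80) and the tight junction gene Cldn5 (0.79), although the 6 Plvap-led cells had no Cldn5 UMI. Igf2r was closest to Cfap20 (0.81), Gpc4 (0.80) and mt-Nd4 (0.79).

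The signalling receptors were highest in other cell types than the ligands. Igf1r, the main signalling receptor, was highest in endothelial-like cells at 307 CPM (237 to 391), with 351, 252, 325 and 343 CPM by barcode number, and 38 of 84 cells had a UMI. Ependymocyte-like cells followed at 100.1 CPM (81.4 to 122), with 91.7, 107, 97.6 and 103 CPM, and the ranges did not overlap. VLMC-like cells had 48.0 CPM (34.1 to 65.6) and macrophage-like cells 18.1 CPM (7.79 to 35.6). Insr, the insulin receptor, was also highest in endothelial-like cells, at 79.1 CPM (46.1 to 127), ahead of astrocyte-like cells at 29.0 CPM. The 6 Plvap-led cells had 1 Igf1r UMI, at 64.9 CPM (1.64 to 362), an interval that holds the level of all endothelial-like cells. Insrr and the insulin gene Ins1 had no UMI in any cell.

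Of the 38 other genes of the IGF system, 17 had at least 100 UMIs in the named types. Of these 17, 3 (Shc1, Ghr and Socs2) were highest in VLMC-like cells, against 4.63% of the 12531 genes. For each of these 3 the VLMC-like interval overlapped that of the next named type. At least 50% of the UMIs came from 1 type for 3 of the 17 (Htra1, Irs4 and Grb10), a share near the 20.7% of the 12531 genes. Htra1, a secreted protease that can cut binding proteins, was highest in astrocyte-like cells at 1021 CPM (989 to 1053), and VLMC-like cells came next at 239 CPM. Pappa and Pappa2, the proteases of IGFBP4 and IGFBP5, had 8 and 7 UMIs, and Igfals, the third part of the circulating complex, had 1. Adam12, another such protease, had 25.2 CPM (17.3 to 35.6) in OPC-like cells from few UMIs.

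Adapters that carry the signal inside the cell were highest in several types. Irs4 was highest in neuron-like cells at 105 CPM (97.3 to 113), as was Grb10, an inhibitor of both receptors, at 57.3 CPM (51.7 to 63.4). Irs1 at 44.0 CPM, Irs2 at 68.7 CPM and Pik3r3 at 157 CPM were highest in differentiating OPC-like cells, and Pik3r1 at 420 CPM (385 to 457) in OPC-like cells. For Grb10 the interval overlapped that of endothelial-like cells at 41.9 CPM, and for Irs1 that of ependymocyte-like cells at 27.0 CPM. Shc1 was 127 CPM (103 to 154) in VLMC-like and 116 CPM in mural-like cells, with overlapping intervals. The growth hormone receptor gene Ghr was 65.2 CPM (48.9 to 85.3) in VLMC-like cells. Neuron-like cells had 52.7 CPM, with overlapping intervals, and astrocyte-like cells 52.4 CPM. The largest source of Ghr was the neuron-like cells, with 43.3% of its UMIs in named types. Ghr was at 0 in macrophage-like cells (floor 6.77 CPM), the named type with the highest Igf1. Socs2, a feedback inhibitor of that receptor, was 159 CPM (133 to 189) in VLMC-like cells and 197 CPM in the Mgp- and Fxyd5-led cluster. The VLMC-like interval overlapped that of endothelial-like cells at 102 CPM, and neuron-like cells held 44.8% of the Socs2 UMIs in named types. Of the imprinted neighbours H19 had 48 UMIs, with 14.8 CPM in VLMC-like cells from 12 UMIs. It had no UMI in the 14 Rbp4-led cells, where the floor of 44.9 CPM is above the 16.1 CPM of the other VLMC-like cells, so no difference was detectable at this depth.

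**Figure D5:**
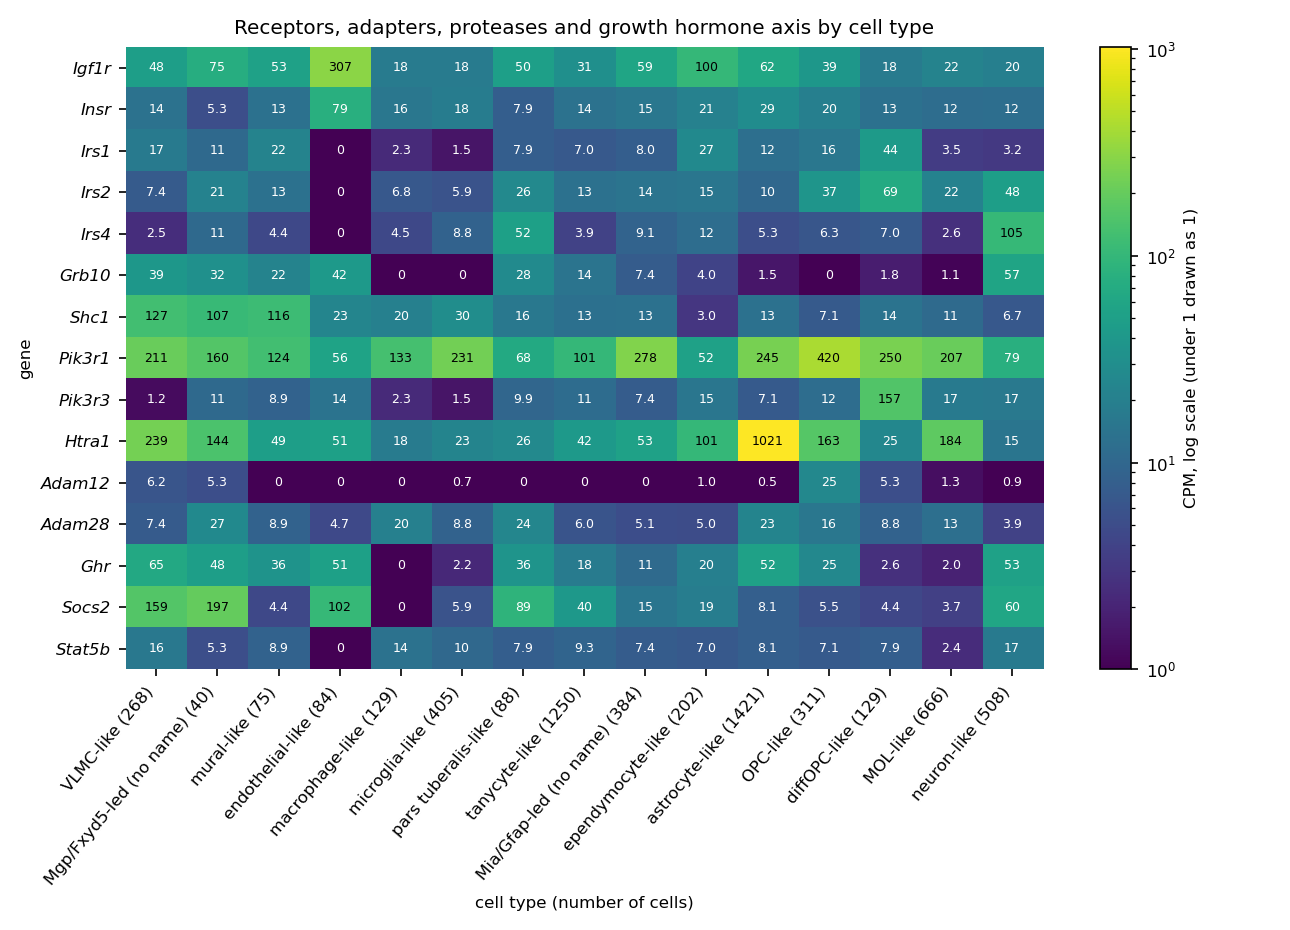
Heat map of 15 receptor, adapter, protease and growth hormone axis genes (rows) by cell type (columns, with the number of cells), coloured by CPM on a log scale and printed in each box. Igf1r is highest in endothelial-like cells at 307 CPM, Htra1 in astrocyte-like cells at 1021 CPM, Irs4 in neuron-like cells at 105 CPM and Ghr in VLMC-like cells at 65.2 CPM.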

How the data were processed

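The authors aligned reads and counted UMIs with Cell Ranger 2.0 (build mm10, per the labels) and deposited 1 matrix of raw counts per gene and cell for all libraries, with no further normalization. It named 27998 Ensembl gene IDs, of which 27645 were matched to a symbol and 27722 to a position in GENCODE M21 (GRCm38). The median depth was 3837 UMIs per cell, and the shallowest cell had 1533. All 5982 cells were kept, the 50 cells that Scrublet called as doublets included (0.836%), and 3 cells whose UMIs were at least 10% haemoglobin formed a class of their own. Cells were normalized, reduced to 2000 variable genes and 30 principal components, and clustered (Leiden, resolution 1, 15 neighbours, seed 0) with scanpy 1.11.5, igraph 0.11.9 and scikit-learn 1.9.0, leaving out 47 IGF genes. A cluster was named from marker lists where at least 3 markers exceeded 4-fold and its leading genes did not go against the name. Counts were summed per type as CPM, intervals came from scipy 1.17.1, and the summing and naming steps were tested on simulated data. Shares of cells were also computed with each cell thinned to 1000 UMIs. The genes named were the 9 members, the fixed IGF lists, the 3 genes most like each member and markers, with sub-cluster genes added after seeing the data. The members and lists were chosen with earlier results of these data known. Cells of all barcode numbers were treated as 1 sample, so no fasted-against-refed test was made. Alternatives changed the clustering, the genes used, doublets, a cell filter, the depth, the scale and the barcode numbers included. Upstream sequences came from RefSeq (13 entries for 9 of 9 members).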

Additional observations from a re-analysis of the deposited data

How the results depend on the processing

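The highest named type was the same for 9 of 9 genes at Leiden resolution 2, with the IGF genes kept, without called doublets, with a filter on UMIs and mitochondrial share, and with the mean over cells of each cell's CPM. Igf1 moved to VLMC-like cells at resolution 0.5, where no macrophage-like cluster formed (8 of 9). Under K-means with 9 clusters, which named 7 types and no OPC-like, differentiating OPC-like, microglia-like, macrophage-like, mural-like or pars tuberalis-like one, 6 of 9 kept their type. Igf1 moved to VLMC-like cells and Igfbp7 to endothelial-like cells, as their main types were not formed. Igf2 also moved to endothelial-like cells, and the cause was not tested. Igf2r moved to pars tuberalis-like cells after thinning and to VLMC-like cells without barcode number 4. Leaving out each barcode number gave 8 to 9 of 9 genes with the same type and 4 to 5 with at least 50% of UMIs in 1 type, and over all alternatives the latter count ran from 3 to 5. Without barcode number 4, Igfbp3 in endothelial-like cells was 328 CPM. Leaving out the 14 Rbp4-led cells, the 6 Plvap-led cells, or barcode numbers within the former and for Igf1 in microglia-like, Igf2 in mural-like and Igf2r in pars tuberalis-like cells, was chosen after seeing the data. Without the 14 cells, Igf2 in VLMC-like cells was 17.4 CPM and mural-like cells were highest, and Igfbp2 was 567 CPM. Without the 6 cells, Igfbp3 in endothelial-like cells was 90.2 CPM. Depth limits types with few cells, where 3 UMIs equal 13.95 CPM in endothelial-like and 13.3 CPM in mural-like cells. No paired analysis was possible because the files used here tie barcodes to no library or condition.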
